A study of Oryza sativa with 24 samples.

Results

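The 6 rice genes described here, AOS1, AOS2, AOS3, AOS4, AOC3 and OsOPR4, carry names of 3 consecutive enzyme steps of jasmonate synthesis. They were chosen with earlier results of these data known, and found by name. A gene was taken where one of its names in the array annotation or in the RefSeq gene table was exactly one of these. Each had 1 probe set, which gives 6 of 57194 probe sets analysed and 6 of 17905 genes represented. Another gene, OsOPR6, lists OPR4 among its names but not OsOPR4, and was not taken. The seedlings were Oryza sativa L. cv Nipponbare, 2 weeks old and grown on water. Whole roots, or the third leaf cut at the lamina joint, were kept in water at 30 °C with 0.1% dimethylsulfoxide (DMSO, the solvent) or with 5 µM trans-zeatin (tZ, an active cytokinin) in the same solvent, for 30 or 120 min. This gives 8 groups of 3 arrays: root and leaf, labelled DMSO or tZ, at 30 or 120 min. Every group, the DMSO groups included, was an excised organ bathed in DMSO, and no intact or uncut seedling was among the 24 arrays. No label ties the 3 arrays of a group to separate cultures, and the p-values therefore measure a spread that may be technical.

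Jasmonates are fatty acid-derived hormones known for fast synthesis after wounding and for roles in defence, growth and fertility. In the plastid, lipoxygenases oxygenate linolenic acid, allene oxide synthase (AOS, a cytochrome P450 of the CYP74 family) turns the hydroperoxide into an unstable allene oxide, and allene oxide cyclase (AOC) closes the ring to give oxophytodienoic acid (OPDA). In the peroxisome an OPDA reductase (OPR) and rounds of beta-oxidation complete jasmonic acid, which JAR1 joins to isoleucine. The conjugate binds the receptor COI1 and leads to the breakdown of JAZ repressors, which belong to the TIFY family.

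Signals are the deposited linear intensities, and differences are on the log2(signal + 20) scale, which understates changes of dim genes. A gene was called where the adjusted p of limma was below 0.05 over all probe sets tested in the organ. Root arrays had median signals of 68.2 to 86.7, and leaf arrays of 47.6 to 57.0. The tissue field names root for all 24 arrays, so the organ in the titles was checked: each of 4 photosynthesis genes had a higher signal in every leaf array than in any root array. OsCASP1, a gene of the root endodermis, read 2019.3 or more in every root array and 27.1 or less in every leaf array. Type-A response regulators, which cytokinin switches on, followed the treatment labels only in part. Of 5 tested genes, 3 were higher and 1 lower with tZ in root at 30 min, 2 and 1 in root at 120 min, 1 and 2 in leaf at 30 min, and 4 and 0 in leaf at 120 min. Over all probe sets tested in root, 13.9% and 11.4% were higher and 19.9% and 18.9% lower at 30 and 120 min. In leaf, 23.7% and 22.0% were higher and 21.8% and 21.4% lower. Between tZ 120 min and DMSO 30 min, 5 of 5 were higher in each organ. Over all tested, 11.7% were higher there in root and 23.4% in leaf. All arrays labelled DMSO 120 min were above all arrays labelled tZ 30 min for 5 of 5 genes in each organ, a comparison in which time and treatment change together. No share over all probe sets was counted for that comparison. The labels are therefore used as names. The comparison of tZ 120 min with DMSO 30 min, which uses neither of those groups, is given beside the results. Time and treatment change together in it too, so a difference by treatment and one by time cannot be told apart there. In root tZ at 120 min, replicate 2 was the highest of the 3 arrays for 68.9% of the 6476 probe sets called lower with tZ at that time. It was also the highest for 5 of 5 called members, so values without it are given.

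**Figure D1:**
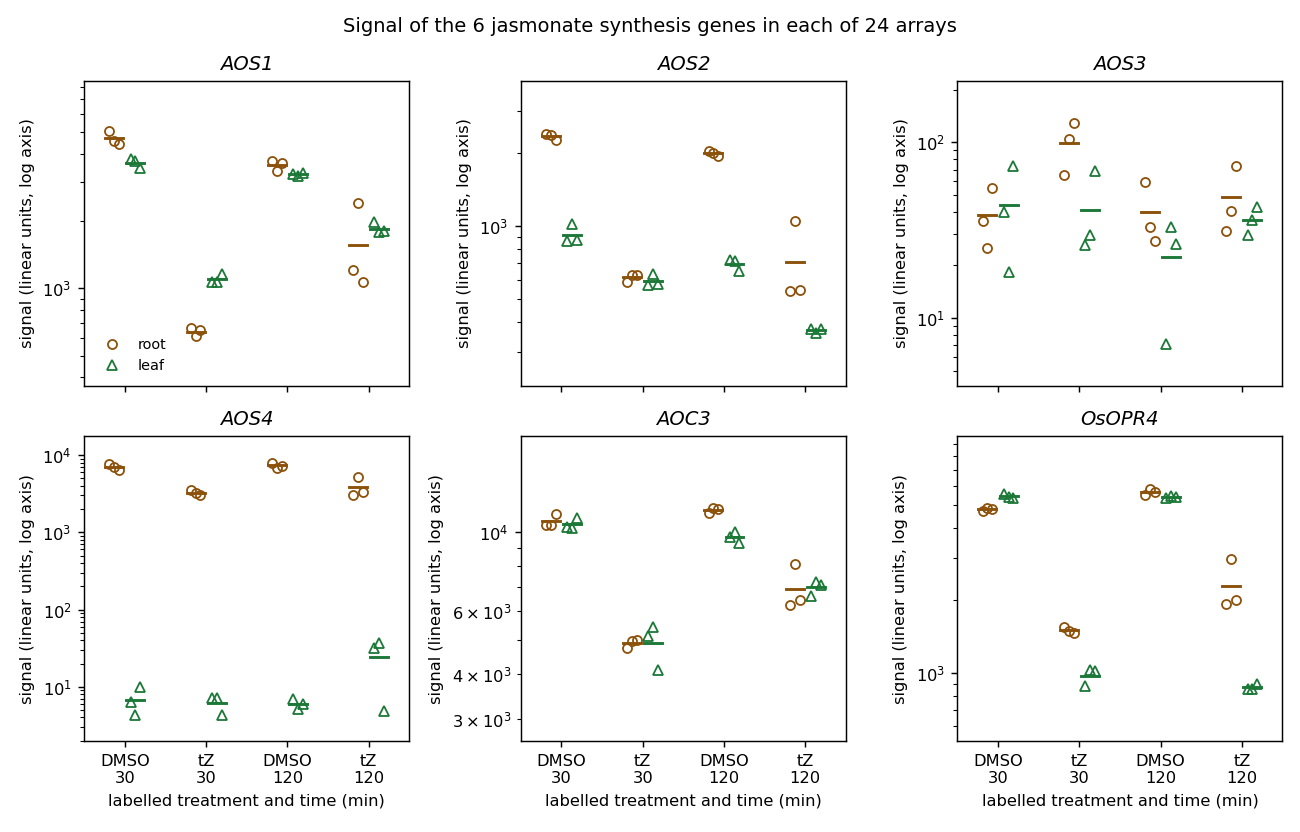
Signal of each member in every array, on a log axis, by group; each circle (root) or triangle (leaf) is 1 array, 3 per group, and lines are group means. AOS1, AOS2, AOC3 and OsOPR4 stand lower in the tZ groups of both organs, AOS4 has high signals in root only, and AOS3 is dim throughout.

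With labelled tZ, the members that were well above the dim end of the array were lower in both organs and at both times. Since the members were chosen with earlier results of these data known, the counts and medians below describe them and do not test the set. In root, 5 of 6 members were called lower at 30 min, where 19.9% of all tested probe sets were called lower and 13.9% higher. At 120 min 5 of 6 were called lower, against 18.9% lower and 11.4% higher over all tested. In leaf, 4 of 5 tested members were called lower at 30 min (background 21.8% lower, 23.7% higher) and 4 of 5 at 120 min (21.4% lower, 22.0% higher). In each of these comparisons the called members' 3 tZ arrays lay below all 3 DMSO arrays, as did those of 26.0% and 26.0% of probe sets in root and 24.7% and 25.9% in leaf, at 30 and 120 min. No member was called higher in any of these 4 comparisons. The median log2 difference of the members was -1.40 and -1.12 in root and -1.11 and -0.80 in leaf, at 30 and 120 min, where the medians over all tested probe sets were -0.04, -0.10, 0.03 and 0.03. In the comparison of tZ 120 min with DMSO 30 min, 5 of 6 members were lower in root and 4 of 5 in leaf, against 17.7% and 22.2% of all tested probe sets called lower (11.7% and 23.4% higher). In these bulk organs, fewer cells of a type and less RNA per cell cannot be told apart.

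The photosynthesis markers moved with the treatment label as well. Their summed signal in root ran from 9883.9 to 11251.7 in DMSO and from 1485.4 to 1578.3 in tZ at 30 min, and from 5899.8 to 5943 in DMSO and from 1671.6 to 5128.7 in tZ at 120 min. One gene, CAB2R, of the chlorophyll a/b-binding proteins, made up most of the root sums, with 9209.9, 10560 and 9368.1 in DMSO and 1206.5, 1246.8 and 1224.3 in tZ at 30 min. At 120 min it read 5515.9, 5475.1 and 5416.5 in DMSO and 1435.9, 4746.4 and 1382.9 in tZ, so the upper end of the tZ sums is replicate 2. In root 3 of 4 markers were called lower at 30 min (19.9% of all tested probe sets) and 2 of 4 at 120 min (18.9%). The root gene OsCASP1 was not called in root (0.15 at 30 min, -0.03 at 120 min) and not tested in leaf. In leaf, 4 of 4 photosynthesis markers were lower at both times (21.8% and 21.4% of all tested). Their sums in leaf were 82407.7 to 89382.2 in DMSO against 53537.6 to 54017.1 in tZ at 30 min. At 120 min they were 76362.4 to 80924.6 against 59039.5 to 61690.6. The part of these shifts in the members' results was not tested.

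**Figure D2:**
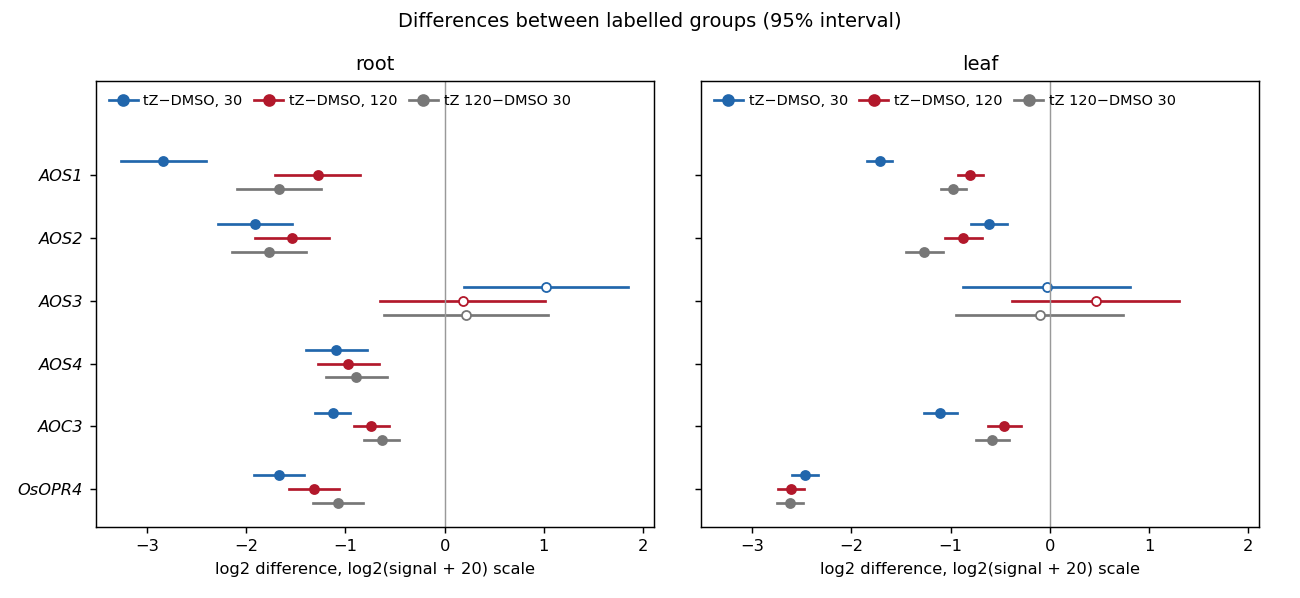
Log2 difference, on the log2(signal + 20) scale, for each member in root and leaf: tZ minus DMSO at 30 min (blue) and 120 min (red), and tZ 120 min minus DMSO 30 min (grey). Points are estimates, filled where called and open where not, and bars are 95% confidence intervals from limma; AOS4 was not tested in leaf. In root at 30 min AOS1 stands at -2.83 and AOS3 at 1.02, and in leaf OsOPR4 stands at -2.47 and -2.61.

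AOS1, also named PRECOCIOUS after mutants that pass early from the juvenile to the adult phase, encodes an allene oxide synthase. In root its signal was 5075.8, 4570.0 and 4423.6 in DMSO and 661.2, 609.4 and 650.0 in tZ at 30 min. At 120 min it was 3701.6, 3356.2 and 3655.5 in DMSO and 1204.4, 2415.9 and 1062.6 in tZ. The tZ arrays lay below all DMSO arrays at both times, and replicate 2 of tZ at 120 min stood above the other two. The tZ mean was 13.7% of the DMSO mean at 30 min (log2 difference -2.83, SE 0.20, adjusted p 2.02e-08) and 43.7% at 120 min (-1.28, adjusted p 1.41e-04). Without replicate 2 the difference at 120 min was -1.64. In leaf AOS1 read 3784.1, 3713.0 and 3451.6 in DMSO and 1061.8, 1068.0 and 1160.4 in tZ at 30 min, and 3254.0, 3190.4 and 3282.8 in DMSO and 1970.4, 1784.1 and 1799.7 in tZ at 120 min. Groups did not overlap at either time. The tZ mean was 30.1% of DMSO at 30 min (-1.72, SE 0.060, adjusted p 7.61e-13) and 57.1% at 120 min (-0.80, adjusted p 1.02e-08). For tZ 120 min against DMSO 30 min, the difference was -1.67 in root and -0.97 in leaf.

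AOS2 is the second gene of this enzyme family. In root it read 2410.8, 2376.6 and 2275.5 in DMSO against 587.6, 627.1 and 624.8 in tZ at 30 min, and 2044.1, 2005.1 and 1956.4 against 537.2, 1051.2 and 543.1 at 120 min. All tZ arrays lay below all DMSO arrays, with replicate 2 at 120 min again the highest of its group. The tZ mean was 26.0% of DMSO at 30 min (-1.91, SE 0.18, adjusted p 3.99e-07) and 35.5% at 120 min (-1.54, adjusted p 6.13e-06, or -1.85 without replicate 2). In leaf AOS2 read 868.8, 1015.3 and 874.9 in DMSO against 572.1, 635.4 and 575.1 in tZ at 30 min, and 720.6, 714.4 and 648.8 against 376.0, 359.1 and 375.3 at 120 min. The groups were separate in leaf too, with tZ at 64.6% of DMSO at 30 min (-0.61, SE 0.086, adjusted p 1.60e-05) and 53.3% at 120 min (-0.87, adjusted p 3.02e-07). With tZ 120 min set against DMSO 30 min, the difference was -1.77 in root and -1.26 in leaf.

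AOS3 and AOS4 are 2 further allene oxide synthase genes, which lie next to each other in the RefSeq gene order with 0 annotated genes between them. AOS4 was bright in root, where it stood between percentiles 94.0 and 98.3 of an array's signals. It read 7560.1, 6998.1 and 6457.5 in DMSO and 3545.0, 3216.5 and 3056.2 in tZ at 30 min, and 8012.4, 6906.9 and 7270.5 against 3073.8, 5228.0 and 3300.9 at 120 min. All tZ arrays lay below all DMSO arrays. The tZ mean was 46.7% of DMSO at 30 min (-1.09, SE 0.14, adjusted p 1.82e-05) and 52.3% at 120 min (-0.97, adjusted p 8.77e-05, or -1.21 without replicate 2), and the difference between tZ 120 min and DMSO 30 min was -0.89. In leaf AOS4 was below the array median in 12 of 12 arrays and did not pass the filter on low signals, so no leaf test was made. Its leaf signal was 6.3, 4.3 and 9.9 in DMSO and 7.2, 7.2 and 4.3 in tZ at 30 min, and 6.9, 5.2 and 5.9 in DMSO and 31.3, 37.3 and 4.8 in tZ at 120 min. A pair of these arrays, both of tZ at 120 min, stood above the rest of the leaf arrays, and every leaf array lay below every root array. No ratio is given against signals this dim. AOS4 was named as a root gene when it was chosen, so this organ difference is a description.

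AOS3 was dim in both organs, below the array median in 10 of 12 arrays each. In root it read 35.7, 24.9 and 54.8 in DMSO and 65.0, 104.0 and 129.0 in tZ at 30 min, and 59.7, 33.0 and 27.3 against 31.4, 40.9 and 73.4 at 120 min. The tZ arrays lay above the DMSO arrays at 30 min and overlapped them at 120 min. The difference at 30 min was 1.02 (SE 0.39, 95% interval 0.19 to 1.85) with an adjusted p of 0.0549, which missed the threshold, and at 120 min it was 0.18 (adjusted p 0.785). With a pseudocount of 80, with eBayes without a trend or with all 24 arrays in 1 fit, the value at 30 min passed (adjusted p 0.0395, 0.0285 and 0.0359), as it did in 2 of 6 fits that left out 1 array. In leaf AOS3 read 40.3, 18.3 and 73.5 in DMSO and 25.9, 29.7 and 68.3 in tZ at 30 min, and 7.1, 33.1 and 26.5 against 29.7, 36.0 and 42.6 at 120 min. The leaf groups overlapped, and the differences of -0.03 and 0.46 were not called. Between tZ 120 min and DMSO 30 min, it was 0.21 in root and -0.10 in leaf.

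AOC3, a gene of the allene oxide cyclase step, is listed with the names CPM2 and HB, those of rice jasmonate-deficient mutants. In root it read 10406.2, 10455.9 and 11220.5 in DMSO and 4727.5, 4946.6 and 4979.6 in tZ at 30 min, and 11298.8, 11662.8 and 11524.7 against 6251.1, 8106.7 and 6431.4 at 120 min. Groups were separate, with tZ at 45.7% of DMSO at 30 min (-1.13, SE 0.082, adjusted p 2.66e-08) and 60.3% at 120 min (-0.74, adjusted p 4.54e-06, or -0.86 without replicate 2). In leaf it read 10283.4, 10236.9 and 10882.9 in DMSO and 5113.3, 5429.3 and 4110.8 in tZ at 30 min, and 9632.2, 9964.1 and 9288.5 against 6624.4, 7237.1 and 7108.3 at 120 min. The groups did not overlap, and the tZ mean was 46.7% of DMSO at 30 min (-1.11, adjusted p 4.39e-09) and 72.6% at 120 min (-0.46, adjusted p 1.18e-04). In the comparison of tZ 120 min with DMSO 30 min, the difference was -0.63 in root and -0.58 in leaf.

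OsOPR4 belongs to the family of OPDA reductases. Its name does not show that it acts in jasmonate synthesis, for which OsOPR7, described below, is the peroxisomal reductase in rice. With tZ against DMSO at equal time, OsOPR7 was called lower only in root at 30 min. The values of OsOPR4 therefore do not stand for the reductase step as a whole. The family members OsOPR5, OsOPR1 and OsOPR6 are neighbours of OsOPR4 in the RefSeq gene order, with 1, 2 and 2 annotated genes between. In root OsOPR4 read 4705.7, 4850.1 and 4817.1 in DMSO and 1544.9, 1488.7 and 1458.4 in tZ at 30 min, and 5495.6, 5848.8 and 5674.6 against 1924.3, 2983.8 and 2008.3 at 120 min. All tZ arrays lay below all DMSO arrays, with tZ at 31.3% of DMSO at 30 min (-1.67, SE 0.12, adjusted p 2.06e-08) and 40.6% at 120 min (-1.32, adjusted p 4.36e-07, or -1.52 without replicate 2). In leaf it read 5576.3, 5382.7 and 5342.6 in DMSO and 875.8, 1021.9 and 1010.8 in tZ at 30 min, and 5365.7, 5466.5 and 5400.9 against 853.5, 853.5 and 900.0 at 120 min. The leaf groups were far apart, with tZ at 17.8% of DMSO at 30 min (-2.47, adjusted p 1.40e-14) and 16.1% at 120 min (-2.61, adjusted p 1.16e-14). For tZ 120 min against DMSO 30 min, the difference was -1.08 in root and -2.62 in leaf.

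The 30 and 120 min groups of the same organ and treatment label were compared next, and most calls were in tZ. In root DMSO, 0 of 6 members were called between the times (background 6.23% of probe sets), with differences of -0.39 for AOS1, -0.23 for AOS2 and 0.24 for OsOPR4. Fitting only the groups compared called AOS1 (adjusted p 0.00516) and OsOPR4 (adjusted p 0.0236), with the same values. In root tZ, AOS1 was higher at 120 than at 30 min by 1.16 (adjusted p 0.00206), AOC3 by 0.49 (0.00152) and OsOPR4 by 0.59 (0.00642), 3 of 6 members against 3.65% of probe sets called higher. Replicate 2 was the highest of the 3 tZ 120 min arrays for each of them. Without it the differences were 0.80, 0.38 and 0.39, and all 3 remained called. With eBayes without a trend OsOPR4 missed the threshold (adjusted p 0.0572). In leaf tZ, AOS1 (0.74, adjusted p 4.04e-07) and AOC3 (0.52, adjusted p 3.02e-04) were higher at 120 min, 2 of 5 tested members against 3.80%, while AOS2 was lower (-0.65, adjusted p 9.07e-05), 1 of 5 against 4.21%. In leaf DMSO only AOS2 was called, lower at 120 min (-0.39, adjusted p 0.0344; background 0.694%). That call was lost when any one of the 6 arrays compared was left out.

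A change of the response over time was tested by taking the tZ effect at 30 min from that at 120 min. In root, AOS1 had a smaller fall at 120 min (1.55, SE 0.28, adjusted p 0.00571), the 1 member called of 6, against 2.60% of probe sets called higher. Without replicate 2 of root tZ 120 min it was 1.19, and with eBayes without a trend its call was lost (adjusted p 0.0698). AOC3, at 0.39 (adjusted p 0.0711), missed the threshold. In leaf, AOS1 (0.91, adjusted p 5.96e-06) and AOC3 (0.64, adjusted p 0.00227) had a smaller fall at 120 min, 2 of 5 tested members against 2.03%, while AOS2 (-0.26) and OsOPR4 (-0.15) were not called. With eBayes without a trend AOC3 missed the threshold (adjusted p 0.0508). An exchange of the DMSO 120 and tZ 30 min labels leaves these differences at the same value, but not the tZ minus DMSO differences at equal time. Those at 30 min would become the 120 minus 30 min values of DMSO, with 0 of 6 members called in root. Those at 120 min would become the 120 minus 30 min values of tZ. For AOS1 these are -0.39 and 1.16 in root and -0.17 and 0.74 in leaf. After the exchange AOS2 in leaf would still be lower with tZ, by -0.39 (adjusted p 0.0344) and -0.65 (adjusted p 9.07e-05). No other member would be called lower. Apart from AOS2 in leaf, the falls with tZ, and a smaller fall at 120 min, therefore hold only under the labels as given.

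The response to labelled tZ differed between the organs for some members. At 30 min, AOS1 (leaf minus root 1.12, adjusted p 4.73e-04) and AOS2 (1.30, adjusted p 2.69e-05) fell less in leaf, and OsOPR4 fell more (-0.80, adjusted p 7.31e-05). These 3 of the 5 members tested stand against 31.3% of probe sets called in either direction. At 120 min, AOS2 again fell less in leaf (0.67, adjusted p 0.0171) and OsOPR4 more (-1.29, adjusted p 7.20e-08), 2 members against 30.7%. Without root tZ 120 min replicate 2, 4 members passed, with AOS1 at 0.84 and AOC3 at 0.40 added, and without replicate 1 or 3 of that group AOS2 no longer passed (adjusted p up to 0.0674). AOS2 also missed the threshold after a shift of all arrays to 1 median (adjusted p 0.134). For AOC3 at 30 min the difference between organs was 0.02 (95% interval -0.23 to 0.27, adjusted p 0.925).

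**Figure D3:**
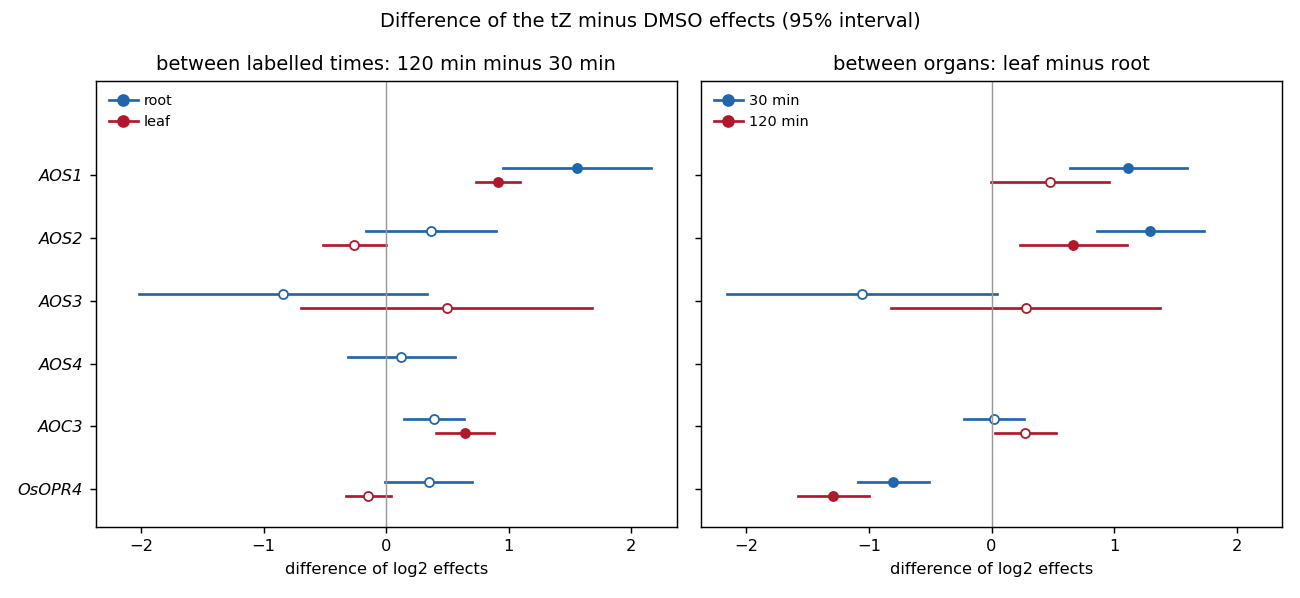
Differences of the tZ effect for each member: at 120 minus 30 min in root and leaf, and leaf minus root at each time; points are estimates, filled where called, and bars are 95% confidence intervals from limma. OsOPR4 lies below 0 and AOS2 above 0 in the comparison of organs at both times.

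Levels between the organs at a given treatment label were compared for the 5 members other than AOS4. In DMSO at 30 min AOS2 was lower in leaf (-1.34, adjusted p 2.10e-08), 1 of 5, where 60.1% of probe sets were called in either direction. In tZ at 30 min AOS1 was higher in leaf (0.76, adjusted p 2.65e-04), AOS3 lower (-0.99, adjusted p 0.0254) and OsOPR4 lower (-0.62, adjusted p 6.66e-06), 3 of 5 against 62.6%. The call of AOS3 was lost in 4 of 6 fits that left out 1 array. In DMSO at 120 min AOS2 (-1.50) and AOC3 (-0.26, adjusted p 0.011) were lower in leaf, 2 of 5 against 61.5%. In tZ at 120 min AOS2 (-0.83, adjusted p 2.83e-05) and OsOPR4 (-1.36, adjusted p 9.73e-12) were lower in leaf, 2 of 5 against 61.0%. The median over all probe sets was itself shifted between the organs, by -0.16, -0.10, -0.20 and -0.07 in these 4 comparisons. With arrays shifted to the same median, AOC3 in DMSO at 120 min became higher in leaf (0.26, adjusted p 0.0201), and AOS3 and OsOPR4 in tZ at 30 min lost their calls. Under the same shift, further members became called higher in leaf: OsOPR4 (0.58) and AOC3 (0.37) in DMSO at 30 min, AOC3 (0.38) in tZ at 30 min, OsOPR4 (0.44) in DMSO at 120 min, and AOS1 (0.68) and AOC3 (0.36) in tZ at 120 min. AOS2 kept its call in the 3 comparisons where it had one. With quantile normalization AOC3 in DMSO at 120 min (adjusted p 0.168) and AOS3 in tZ at 30 min (adjusted p 0.150) lost theirs.

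Over the 8 groups, the order of the means and the overlap of the arrays show which levels can be told apart. For AOS1, the highest group was root DMSO 30 min (4689.8 ± 342, SD, n = 3), and the lowest was root tZ 30 min (640.2 ± 27.3). Leaf DMSO 30 min overlapped root DMSO 120 min, and root tZ 120 min overlapped leaf tZ 120 min and leaf tZ 30 min. AOS2 was lowest in leaf tZ 120 min (370.1 ± 9.56) and highest in root DMSO 30 min (2354 ± 70.4), and its arrays in root tZ 30 min overlapped leaf tZ 30 min. OsOPR4 had its highest mean in root DMSO 120 min (5673 ± 177) and its lowest in leaf tZ 120 min (869.0 ± 26.8), which overlapped leaf tZ 30 min. AOC3 had its highest mean in root DMSO 120 min (11495 ± 184), and its lowest groups, root and leaf tZ 30 min, overlapped. For AOS3 every neighbouring pair in the order overlapped.

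Other genes of the pathway were taken from lists of names, which were also chosen with earlier results of these data known. Of the lipoxygenases (LOX), the enzyme class that opens the pathway, 6 of 6 tested were higher with tZ in root at 30 min (13.9% of all tested probe sets), 4 of 6 at 120 min (11.4%) and 4 of 5 in leaf at 30 min (23.7%), with median log2 differences of 0.85, 0.42 and 0.88. In leaf at 120 min 2 of 5 were higher (22.0%) and 1 lower (21.4%), with a median of 0.60. With tZ 120 min set against DMSO 30 min, 5 of 6 were higher in root (11.7%; median 0.55) and 2 of 5 in leaf (23.4%; median 0.07). CM-LOX1 read 342 ± 24.9 in DMSO and 714 ± 75.1 in tZ in root at 30 min (1.01, adjusted p 4.20e-05), and in leaf 4087 ± 113 and 8593 ± 928 (1.06, adjusted p 1.33e-08). LOX2 was higher in root (1.04 and 0.96 at 30 and 120 min) and at 120 min lower in leaf (-0.31, adjusted p 0.0436). CM-LOX2 was higher in root (1.01 and 0.65) and leaf (0.88 and 1.03), and LOX3 was higher at 30 min in leaf (1.17). LOX3 was dim in these leaf groups, at 35.1 ± 9.23 in DMSO and 103 ± 13.0 in tZ. Between tZ 120 min and DMSO 30 min, the differences in root and leaf were 0.88 and 1.19 for CM-LOX1, 0.62 and 1.02 for CM-LOX2, 1.07 and -0.09 for LOX2, and 0.20 and 0.07 for LOX3, of which LOX2 in leaf and LOX3 in both organs were not called. LOX3 is also named r9-LOX1, a name of lipoxygenases whose product is not the hydroperoxide from which jasmonate is made. The LOX counts therefore cover the enzyme class and not jasmonate synthesis alone.

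Of 7 OPR genes listed, 6 were tested, OsOPR4 among them. They were called lower in 4, 2, 3 and 3 cases in root at 30 and 120 min and leaf at 30 and 120 min, and higher in 0, 1, 0 and 0. Over all tested probe sets, 19.9%, 18.9%, 21.8% and 21.4% were lower and 13.9%, 11.4%, 23.7% and 22.0% higher in these comparisons. In the comparison of tZ 120 min with DMSO 30 min, 4 of 6 were lower and 1 higher in root and 3 of 6 lower in leaf. Over all tested probe sets, 17.7% and 22.2% were lower and 11.7% and 23.4% higher there, in root and leaf. OsOPR5 was lower in root (-0.48 and -0.51) and more so in leaf (-1.92 and -1.52), by its brightest probe set, while its second probe set missed the threshold in root at 30 min (-0.34, adjusted p 0.141). OsOPR1 was lower in root at 30 min (-0.33) and in leaf (-0.72 and -0.59). OsOPR7, the peroxisomal reductase of rice jasmonate synthesis, read 5713 ± 235 in DMSO and 4884 ± 387 in tZ in root at 30 min (-0.23, adjusted p 0.0179), and its values elsewhere (-0.05 in root at 120 min, -0.08 and -0.04 in leaf) were not called. OsOPR6 was higher in root at 120 min (1.40, adjusted p 3.06e-04). For tZ 120 min against DMSO 30 min, OsOPR5 (-0.43 in root, -1.70 in leaf) and OsOPR1 (-0.57 and -0.62) were lower in both organs. In root OsOPR7 was lower (-0.23, adjusted p 0.0182) and OsOPR6 higher (1.81), and in leaf neither was called.

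Downstream, 3 genes of the 4CLL family, among which beta-oxidation enzymes that activate OPDA derivatives are found, were called lower in leaf (3 of 3 at both times), and in root 2 of 3 were lower and 1 higher at 30 min, and 1 higher and 0 lower at 120 min. The higher one was 4CLL4 (0.22 and 0.39). With tZ 120 min set against DMSO 30 min, 3 of 3 were lower in leaf, and in root 1 was lower and 4CLL4 higher (0.33). The shares over all probe sets are those given for the OPR genes. OsJAR1, which joins jasmonic acid to isoleucine, was higher with tZ in leaf at 120 min (0.30, adjusted p 1.86e-04) and not called in the other 3 comparisons of tZ with DMSO at equal time. Between tZ 120 min and DMSO 30 min, it was lower in root (-0.24, adjusted p 0.0107) and not called in leaf (0.13, adjusted p 0.0553). Its tZ effect was higher in leaf than in root at 30 min (0.26, adjusted p 0.0142) and 120 min (0.32, adjusted p 0.00237). Of 21 receptor and repressor genes listed, 20 were tested, and 11, 9, 12 and 11 were lower and 3, 2, 2 and 4 higher in root at 30 and 120 min and leaf at 30 and 120 min. The backgrounds were 19.9%, 18.9%, 21.8% and 21.4% lower and 13.9%, 11.4%, 23.7% and 22.0% higher, so the counts of higher genes were near or below theirs. In the comparison of tZ 120 min with DMSO 30 min, 10 of 20 were lower and 3 higher in root and 12 lower and 3 higher in leaf. Over all tested probe sets, 17.7% were lower and 11.7% higher there in root, and 22.2% and 23.4% in leaf. The list holds every TIFY name, and some TIFY proteins are not JAZ repressors. OsTIFY11a was lower in root (-4.39 and -2.60) and in leaf (-2.59 and -2.07). OsTIFY11e, likewise of the JAZ type, was lower in root (-3.02 and -1.29) and in leaf (-3.48 and -1.97). The receptor gene OsCOI1b was higher in root (0.60 and 0.33) and leaf (0.45 and 0.40), whereas OsCOI1a was lower in root (-0.28 and -0.46) and higher in leaf (0.47 and 0.28). OsbHLH148, a bHLH transcription factor, was lower in all 4 comparisons (-3.38, -1.84, -2.45 and -2.16). JAMYB, a MYB factor that jasmonate induces, was lower in leaf (-1.58 and -1.54) and higher in root at 120 min (0.44). For tZ 120 min against DMSO 30 min, JAMYB was lower in both organs, with -0.38 in root (adjusted p 0.0495), opposite in sign to 0.44, and -1.92 in leaf. In that comparison OsbHLH148 (-2.29 in root, -2.19 in leaf), OsTIFY11a (-2.999 and -2.32) and OsTIFY11e (-1.47 and -2.01) were lower in both organs. OsCOI1b was higher in both (0.41 and 0.36), and OsCOI1a was lower in root (-0.46) and higher in leaf (0.27).

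**Figure D4:**
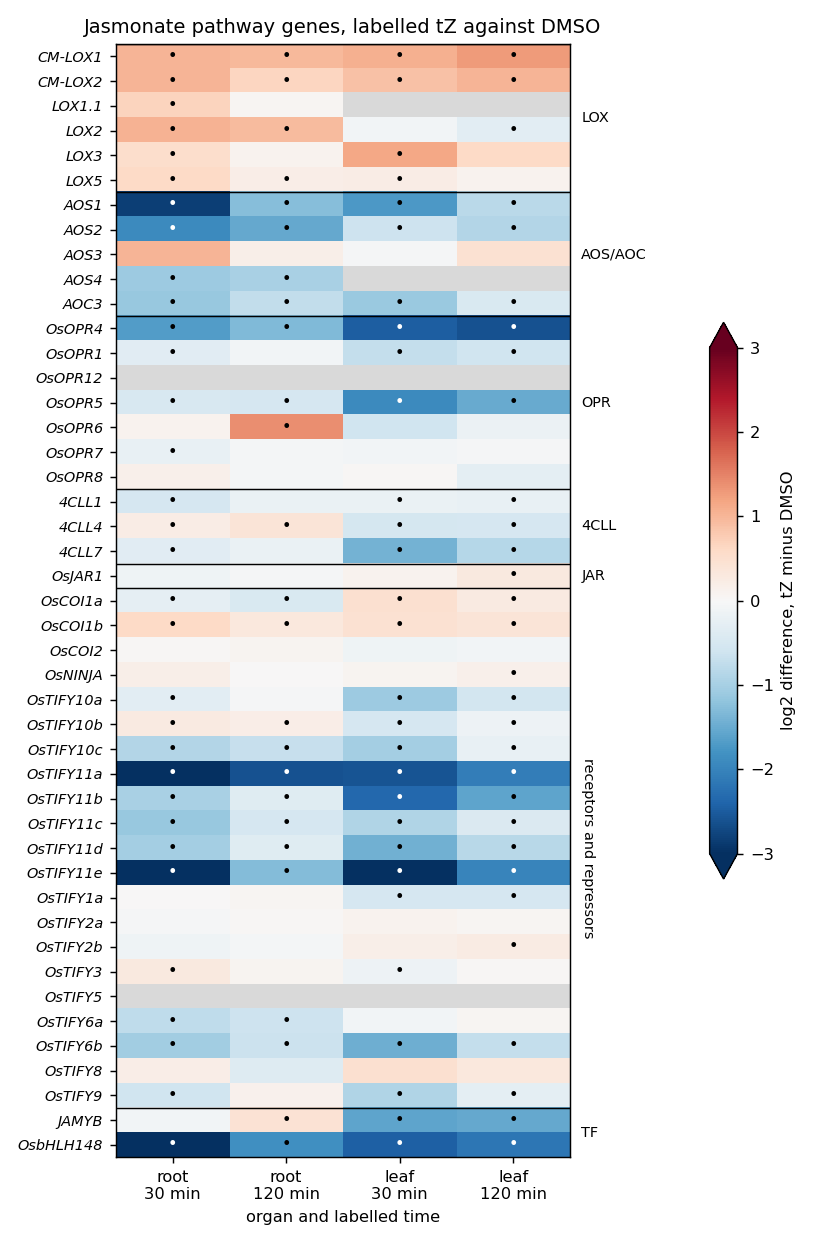
Log2 difference of tZ minus DMSO for the genes of each pathway step in root and leaf at 30 and 120 min. Colour gives the difference, limited to 3 in either direction, dots mark calls, and grey cells were not tested. Lipoxygenases stand mostly above 0, while AOS1, AOS2, AOS4, AOC3, OsOPR4 and the TIFY11 repressors stand below 0.

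The genes whose pattern over the 8 group means was most like each member were found by Pearson correlation among 2327 named genes. The values describe these groups only, and the 8 points share the organ and treatment differences. For AOS1 they were OsC3H33 (0.991), OsbHLH148 (0.968) and OsVPS9A (0.965). For AOS2 they were OsCslD2 (0.976), OsCAX3 (0.973) and OsCIPK11 (0.969). For AOC3 they were OsMAPK6 (0.967), AOS1 (0.961) and OsTIFY6b (0.959). By Spearman correlation, which uses ranks, these 3 stood at places 1, 8 and 57. AOS1, of the pathway step before, was chosen together with AOC3, so its place among the 3 is a description. OsOPR4 was most like CYCD5-3 (0.979), OsC3H66 (0.973) and OsNAS3 (0.972). For AOS4 the values, HOS66 (0.999), OsaEXPb1.9 (0.998) and OsMADR5 (0.998), rest on the difference between organs, and for the dim AOS3 LOX5 (0.911), OsHox24 (0.894) and OsHIP1 (0.884) were nearest.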

How the data were processed

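Rice roots and leaves were measured on 24 arrays of 1 colour, with biotin-labelled cRNA per the labels' protocols. The authors deposited 1 linear intensity per probe set and array. The trimmed mean, leaving out 2% at each end, was 500.07 to 500.08 in every array, so the deposited intensities had been scaled. The summarising software is not given in the sources used here. Of 57381 probe sets, 187 controls were left out. Groups came from the titles. For root tZ at 30 min the protocol text gives both times, and the title was followed.

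Values were taken as log2(signal + 20). Within an organ, probe sets whose mean over 12 arrays lay above the 40th percentile were tested, 34316 in each organ and 38131 in either. limma 3.58.1 in R 4.3.3 was used (lmFit, eBayes with a trend, two-sided, Benjamini-Hochberg over all probe sets tested, threshold 0.05), and the scripts were tested on simulated data. The 12 arrays of an organ shared 1 fit, and contrasts between organs used all 24. The number of arrays, 3 per group, limits the precision.

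Exactly 1 gene was paired with 22436 probe sets, several with 95 and none with 34663. Names came from the array annotation and a RefSeq table of assembly ASM3414082v1, used for names and gene order only. Genes with several probe sets were represented by the brightest. The members and lists were chosen with earlier results of these data known. The rule named all members, the 3 genes most like each, and for each list and comparison at most 2 rises and 2 falls among calls. OsOPR1 and OsOPR7 were named after their values were seen. The lipase names matched 2 genes whose names are shared with other proteins and are not counted, and no hydroperoxide lyase was matched. Same-numbered arrays were checked for shared deviations: of 36 pairs, 0 correlated over 0.1 (-0.0546 to 0.0748). No shared deviation was seen, but this check cannot show whether same-numbered arrays were handled together.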

Additional observations from a re-analysis of the deposited data

Results flagged for a closer look

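The response to labelled tZ differed between the times, by a test of the difference itself, for AOS1 in root (120 minus 30 min, 1.55) and in leaf (0.913) and for AOC3 in leaf (0.645). It differed between the organs at 30 min for AOS1 (leaf minus root, 1.12), AOS2 (1.30) and OsOPR4 (-0.801), and at 120 min for AOS2 (0.668) and OsOPR4 (-1.29). Each of these 8 values was called by limma with the adjusted p given in the results.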

How the results depend on the processing

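The counts of members called lower with tZ against DMSO (5 of 6 in root, 4 of 5 in leaf, at each time) were the same under every alternative run: pseudocounts of 5 and 80, quantile normalization, arrays shifted to the same median, no filter, eBayes without a trend, a replicate block, all 24 arrays or only the groups compared in 1 fit, and leaving out each array of the groups compared in turn. In root at 30 min, AOS3 was called higher in addition, for 6 called in all, under 5 of these (a pseudocount of 80, no trend, all 24 arrays and 2 fits without 1 array). The replicate block, by numbers that showed no shared deviation, moved the comparison between times in leaf DMSO from 481 calls to 299 over all probe sets. Among the members it changed 1 call, AOS2 in that comparison (-0.393, adjusted p 0.0545), so that 0 members were called. That count, 1 as reported, was also 0 with the same median, without a trend, with all 24 arrays, with only the groups compared, and in each fit without 1 array (0 to 0). With quantile normalization, 2 members were called for the tZ effect over time in root, 2 in leaf minus root for DMSO 30 min and 1 for DMSO 120 min. With the same median these were 2 and 3, with 4 for tZ 120 min and 1 for the organ difference of the tZ effect at 120 min. Without a trend, 0 members were called for the tZ effect over time in root and 1 in leaf, and with only the groups compared 2 were called between times in root DMSO. Leaving out 1 array gave 1 to 2 for the tZ effect over time in root and 1 to 4 for the organ difference of the tZ effect at 120 min. Among single members, 743 of the values for called results kept direction and call, 25 lost the call and 1 turned sign. Of results not called, 667 values kept direction and side, 18 kept direction and gained a call, and 41 turned sign. Some of these 41 also gained a call, all named here with the same median: leaf minus root, AOC3 in DMSO 30 min and tZ 30 min and OsOPR4 in DMSO 120 min. The called result that turned was AOC3, leaf minus root in DMSO at 120 min, at 0.256 with the same median. Under quantile normalization the turned values were AOS3 between times in root DMSO (-0.0354), OsOPR4 between times in leaf DMSO (0.0255), and, leaf minus root, AOC3 in tZ 30 min (0.0317) and AOS3 in tZ 120 min (0.0611). With the same median they were -0.0438 and 0.0311 for the first 2 of these. Leaf minus root they were, in DMSO 30 min, AOS1 0.0402 and AOC3 0.368, in tZ 30 min AOS2 0.344 and AOC3 0.380, in DMSO 120 min AOS1 0.374 and OsOPR4 0.444, and in tZ 120 min AOS3 0.0897. Leaving out 1 array turned AOS3 between times in root DMSO (-0.192 to 0.225) and in leaf tZ (-0.246 to 0.226), in tZ against DMSO in root at 120 min (-0.0634 to 0.407) and in leaf at 30 min (-0.357 to 0.287), and in tZ 120 against DMSO 30 min in root (-0.0317 to 0.408) and leaf (-0.427 to 0.217). It also turned AOS3 leaf minus root in DMSO 30 min (-0.251 to 0.393) and in the tZ effect at 120 min (-0.0144 to 0.524). AOS4 in root turned in the tZ effect over time (-0.114 to 0.267) and between times in tZ (-0.036 to 0.345), as did AOS2 between times in root tZ (-0.176 to 0.295) and OsOPR4 between times in leaf DMSO (-0.0179 to 0.0129). AOC3 turned leaf minus root in DMSO 30 min (-0.0588 to 0.0045), tZ 30 min (-0.0906 to 0.109), tZ 120 min (-0.0478 to 0.139) and in the tZ effect at 30 min (-0.0601 to 0.140). The cause of these changes was not tested. Each member had 1 probe set, so no second probe set could be tried. AOS3 in both organs and AOS4 in leaf lay near the dim end of the array, which limits what their values can show.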
